A study of Homo sapiens with 9 samples.

Results

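The genes described are CTH, CBS, CHAC1, MAT1A, MAT2A, AHCY, MTR, BHMT and GNMT, which make cysteine from homocysteine, run the methionine cycle or break down glutathione. They were taken by symbol from the deposited gene table and are 9 of its 20379 genes. The set was selected on results of these same libraries, namely differences from control siRNA, among them a log2 fold change of -1.32 for CHAC1 in UXS1 siRNA without control library c, and the level of CBS in control library c. Poly(A) RNA was sequenced from HCCLM3, an established human hepatocellular carcinoma cell line, in 3 libraries after transfection with siRNA against UXS1, 3 with siRNA against MRPL42 and 3 with a non-targeting control siRNA. Every group was therefore transfected, and neither siRNA dose nor harvest time is given in the sources used here. UXS1 encodes UDP-glucuronate decarboxylase, which makes UDP-xylose, and MRPL42 a protein of the mitochondrial ribosome. The labels do not tell if libraries of 1 group are separate cultures, and the p-values rest on a spread among libraries that could be technical. Libraries are named by group and by the letter a, b or c of their column.

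Methionine adenosyltransferase turns methionine into S-adenosylmethionine, the methyl donor of the cell. Once the methyl group is used, adenosylhomocysteinase releases homocysteine, which is either methylated back to methionine or passed through cystathionine to cysteine, the step called transsulfuration. Cysteine is the limiting amino acid of glutathione. In the liver these reactions are carried by hepatocytes, which use the adenosyltransferase MAT1A, while dividing and transformed cells use MAT2A. CHAC1 and CTH are known targets of the amino acid stress factor ATF4 in mammalian cells.

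The 9 libraries held 15265959 to 22400560 estimated counts, and 12657 genes passed the filter on low counts. UXS1 mRNA stood at 138 to 145 CPM (counts scaled to TMM-adjusted library totals) in UXS1 siRNA and 140.5 to 156 CPM in MRPL42 siRNA. In control libraries a, b and c it had 144, 151 and 180 CPM. MRPL42 mRNA stood at 81.8 to 104 CPM in MRPL42 siRNA and 115 to 131 CPM in UXS1 siRNA. In control libraries a, b and c it had 100.4, 118 and 147 CPM. For both targets, control library a lay within the range of the siRNA against that target, so the groups overlapped. Among the 9 libraries, control library c was the one that differed most in the marker sums. The summed level of 18 hepatocyte markers was 401 to 410 CPM in UXS1 siRNA, 364 to 381 CPM in MRPL42 siRNA, 403 and 397 CPM in control libraries a and b and 244 CPM in control library c. HNF4A, a defining hepatocyte transcription factor, was present in every library at 52.8 CPM or more, with its highest level, 111 CPM, in control library c, while the hepatocyte genes APOA1, APOC3, CPS1 and CYP2E1 stayed below 0.5 CPM in every library. The summed level of 5 fibroblast markers was 303 CPM in control library c and 53.8 to 63.8 CPM in the other 8 libraries. Of that sum in control library c, LUM, which encodes the matrix proteoglycan lumican, made up 277 CPM, while COL1A1 and COL1A2 were at most 0.583 CPM in any library. The 4 endothelial markers summed to 24.0 CPM in control library c and 58.7 to 72.0 CPM elsewhere, with CDH5 at 0 in every library. The 5 leukocyte markers summed to 2.02 CPM in control library c and 4.91 to 8.88 CPM elsewhere. Of these, LYZ had 1.22 CPM in control library c and 4.22 to 7.79 CPM elsewhere. The others were at most 0.859 CPM in any library, and PTPRC was highest in control library c, at 0.53 CPM. The 7 measured histone genes, kept as a sign of RNA quality, summed to 136 CPM in control library c and 158 to 191 CPM elsewhere. The part of these differences in the results that follow was not tested. Differences of the 6 measured members from control siRNA are given with and without control library c, and those of other genes and lists also without it where leaving it out turned the direction, changed a call or moved the value by over 1.5 times.

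Of the 9 genes, 6 passed the filter on low counts, namely MAT2A, AHCY, CBS, MTR, CHAC1 and CTH, and 3 did not. Per kilobase of a principal GENCODE transcript, MAT2A and AHCY led with medians over the 9 libraries of 147 CPM per kilobase (range 132 to 193) and 142 CPM per kilobase (136 to 152). Their ranges overlapped. CBS followed at 8.11 CPM per kilobase (2.99 to 15.3), MTR at 4.45 (4.0 to 5.05), CHAC1 at 4.04 (2.18 to 9.996) and CTH at 3.28 (2.29 to 6.41). These 4 ranges overlapped from neighbour to neighbour, whereas AHCY lay above CBS in every library. BHMT, MAT1A and GNMT, typical of differentiated hepatocytes, had medians of 0.0775, 0.0568 and 0.0 CPM per kilobase, and their highest values were 0.137, 0.136 and 0.107.

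The promoters of CHAC1, CTH and CBS are shown because these 3 genes had the widest spread over libraries of the 6 that passed the filter. They are the RefSeq windows on GRCh38.p14 from 250 bases before to 50 bases after a gene start. Where a gene had several windows, the window nearest to the start of a GENCODE 29 principal transcript was taken, and all 9 genes had at least 1 window. The CHAC1 window is chr15:40953221-40953520 on the plus strand, the CTH window chr1:70411018-70411317 on the plus strand and the CBS window chr21:43076328-43076627 on the minus strand. Capitals mark matches to the searched motifs on either strand, which were the C/EBP-ATF response element TGATGNAA, the antioxidant response element TGACNNNGC and the cyclic AMP response element core TGACGT.
CHAC1: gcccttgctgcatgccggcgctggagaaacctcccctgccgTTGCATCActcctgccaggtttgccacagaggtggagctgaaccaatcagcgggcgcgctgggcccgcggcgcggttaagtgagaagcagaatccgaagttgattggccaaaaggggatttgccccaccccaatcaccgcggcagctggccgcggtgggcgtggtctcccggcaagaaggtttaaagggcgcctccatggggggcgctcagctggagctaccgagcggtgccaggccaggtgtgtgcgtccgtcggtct
CTH: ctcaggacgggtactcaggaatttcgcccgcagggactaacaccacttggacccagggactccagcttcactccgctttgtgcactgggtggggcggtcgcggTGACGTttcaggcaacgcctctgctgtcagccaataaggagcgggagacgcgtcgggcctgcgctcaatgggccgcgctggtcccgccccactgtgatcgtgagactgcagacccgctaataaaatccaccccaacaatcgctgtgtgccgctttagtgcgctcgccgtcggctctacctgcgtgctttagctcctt
CBS: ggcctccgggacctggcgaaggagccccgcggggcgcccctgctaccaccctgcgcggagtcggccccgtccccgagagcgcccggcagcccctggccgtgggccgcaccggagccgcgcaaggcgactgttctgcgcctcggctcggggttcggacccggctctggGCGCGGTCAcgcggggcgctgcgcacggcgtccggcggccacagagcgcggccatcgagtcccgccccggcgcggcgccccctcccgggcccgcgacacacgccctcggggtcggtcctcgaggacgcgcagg
The CHAC1 window holds TGATGCAA, read on the opposite strand, from position 42 of the window. That C/EBP-ATF motif occurs in 3.62% of the 35116 windows of this length in the RefSeq table, and in none of the other windows of the 9 genes. The CTH window holds TGACGT from position 104, a match found in 7.98% of all windows. The CBS window holds TGACCGCGC on the opposite strand from position 168, a match to the antioxidant element found in 13.35% of all windows. No motif shared by the 3 windows was found among those searched.

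CBS encodes cystathionine beta-synthase, which joins homocysteine and serine to cystathionine and commits sulfur to cysteine (chromosome 21, 43053191 to 43076943, minus strand, GRCh38). Its level was 18.6, 21.9 and 20.0 CPM in UXS1 siRNA libraries a, b and c, 24.8, 17.1 and 20.4 CPM in MRPL42 siRNA, and 38.6, 36.2 and 7.53 CPM in control siRNA. Control libraries a and b lay above all 6 targeting libraries and control library c lay below all 6, so the groups overlapped. In bulk RNA, fewer cells that express a gene and less of its RNA per cell cannot be told apart. Without control library c, the mean was 20.1 ± 1.66 CPM in UXS1 siRNA (SD, n = 3) and 20.8 ± 3.85 CPM in MRPL42 siRNA (SD, n = 3), against a mean of 37.4 CPM over 2 control libraries. With control library c, the control mean was 27.5 ± 17.3 CPM (SD, n = 3). GRCh38 also holds CBSL, a copy of CBS on the same chromosome. Of the 31-base stretches of a principal CBS transcript, 98.7% occur in a CBSL transcript, so reads of the 2 copies cannot be told apart with certainty. CBSL is not among the genes of the deposited gene table, so only CBS could be measured.

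CTH encodes cystathionine gamma-lyase, which splits cystathionine to release cysteine (chromosome 1, 70411218 to 70439851, plus strand). It stood at 5.61, 6.39 and 5.57 CPM in UXS1 siRNA, 7.11, 5.17 and 5.91 CPM in MRPL42 siRNA and 11.5, 11.6 and 4.14 CPM in control siRNA. The order was that of CBS: control libraries a and b on top, the 6 targeting libraries in between and control library c lowest.

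CHAC1 encodes a gamma-glutamylcyclotransferase that cleaves glutathione (chromosome 15, 40952962 to 40956519, plus strand). It stood at 6.19, 6.30 and 6.02 CPM in UXS1 siRNA, 11.05, 4.78 and 7.65 CPM in MRPL42 siRNA, and 15.0, 15.6 and 3.39 CPM in control siRNA. MRPL42 siRNA spread over a wider range than UXS1 siRNA, with library a high and library b low, an order that CBS and CTH also had in this group. Its counts were low, 64 to 291 per library, as were the 78 to 222 counts of CTH, while CBS had 142 to 749.

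**Figure D1:**
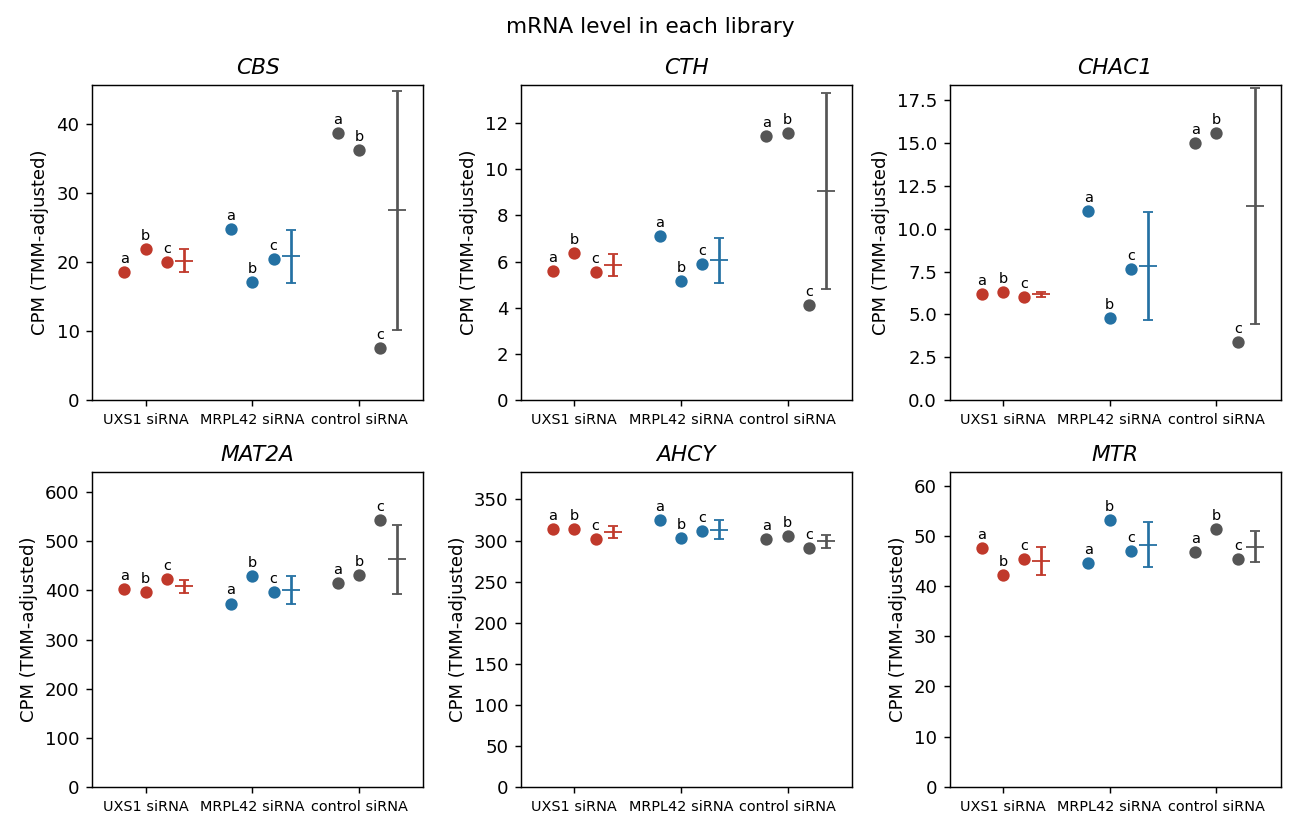
CPM on TMM-adjusted library totals of 6 genes in each library (points, lettered a to c) of UXS1 siRNA, MRPL42 siRNA and control siRNA, with the group mean and SD (bar, n = 3 each) on a linear axis from 0. CBS, CTH and CHAC1 are highest in control libraries a and b and lowest in control library c, whereas MAT2A is highest in control library c.

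The distance of control library c from the mean of control libraries a and b was -2.31 on the log2 CPM scale for CBS, -2.16 for CHAC1 and -1.47 for CTH. Over the 12657 genes the median absolute distance was 0.235, and 1.63%, 1.82% and 4.27% of genes lay at least as far as CBS, CHAC1 and CTH. Control libraries a and b differed from each other by 0.09, 0.05 and 0.01 for the same genes. The 6 targeting libraries spanned 0.53 for CBS, 0.46 for CTH and 1.20 for CHAC1.

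**Figure D2:**
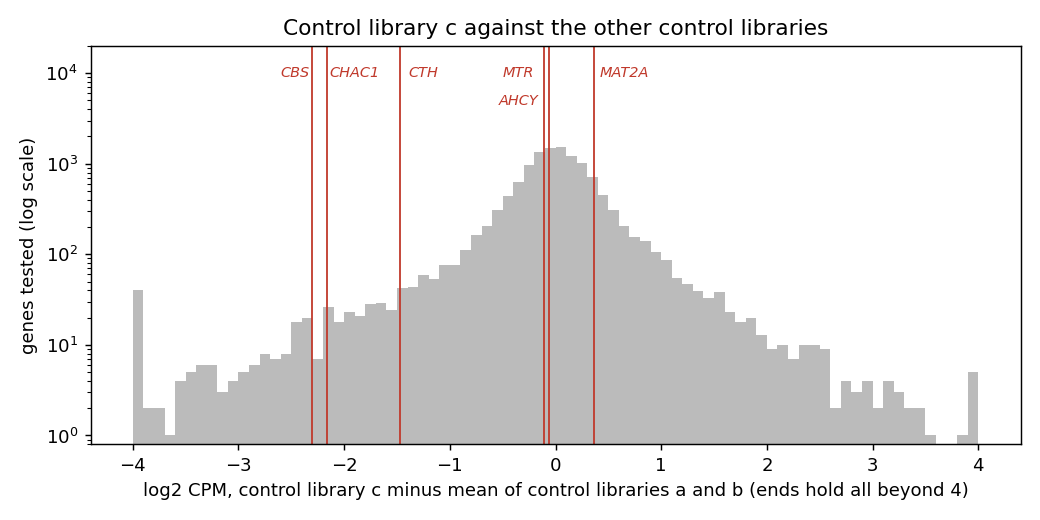
Number of tested genes (log axis) by the log2 CPM of control library c minus the mean of control libraries a and b, in bins of 0.1, with the 6 genes that passed the filter as red lines. CBS (-2.31), CHAC1 (-2.16) and CTH (-1.47) lie in the lower tail, while MTR, AHCY and MAT2A lie near the centre.

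The members were chosen with results of both comparisons with control siRNA known, so their differences from control describe the chosen genes and test nothing. Counts of calls are printed beside the share of all genes for completeness, and nothing is read from them. In UXS1 siRNA against control siRNA the edgeR log2 fold change over all 9 libraries was -0.45 (SE 0.46) for CBS, -0.62 (SE 0.33) for CTH and -0.88 (SE 0.49) for CHAC1. In MRPL42 siRNA against control siRNA it was -0.40 (SE 0.46) for CBS, -0.58 (SE 0.33) for CTH and -0.53 (SE 0.48) for CHAC1. Both comparisons share the 3 control libraries. None of the 6 genes passed an adjusted p of 0.05 in edgeR's quasi-likelihood test, where 0.0158% of all genes passed in UXS1 siRNA and 0.0% in MRPL42 siRNA. None had an unadjusted p below 0.05, against 17.8% of all genes in UXS1 siRNA and 20.2% in MRPL42 siRNA. DESeq2 and limma-voom also called none of the 6, while DESeq2 called 3.63% of all genes in UXS1 siRNA and 5.35% in MRPL42 siRNA.

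When control library c was left out, UXS1 siRNA gave log2 fold changes of -0.90 (SE 0.13) for CBS, -0.98 (SE 0.13) for CTH and -1.32 (SE 0.23) for CHAC1. All 3 were called lower, where edgeR called 1.58% of all genes and 1.07% lower. These calls test nothing, because the genes were chosen on differences from control siRNA in these same libraries. MRPL42 siRNA gave -0.86 (SE 0.13) for CBS, -0.93 (SE 0.13) for CTH and -0.97 (SE 0.23) for CHAC1. Under the same limit, CBS and CTH were called lower and CHAC1 was not, where edgeR called 1.33% of all genes and 0.792% lower. With offsets for transcript length as well, the MRPL42 siRNA value of CHAC1 was -1.08 and passed. That fit called 287 of 12747 genes in MRPL42 siRNA, 158 of them lower, and the same limit holds. The CBS value was nearer 0 when another control was left out, at -0.12 in UXS1 siRNA and -0.07 in MRPL42 siRNA without control library a, and at -0.20 in UXS1 siRNA and -0.15 in MRPL42 siRNA without control library b. Without control library b the values in UXS1 siRNA were -0.58 for CHAC1 and -0.41 for CTH, and in MRPL42 siRNA they were -0.24 for CHAC1 and -0.36 for CTH.

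**Figure D3:**
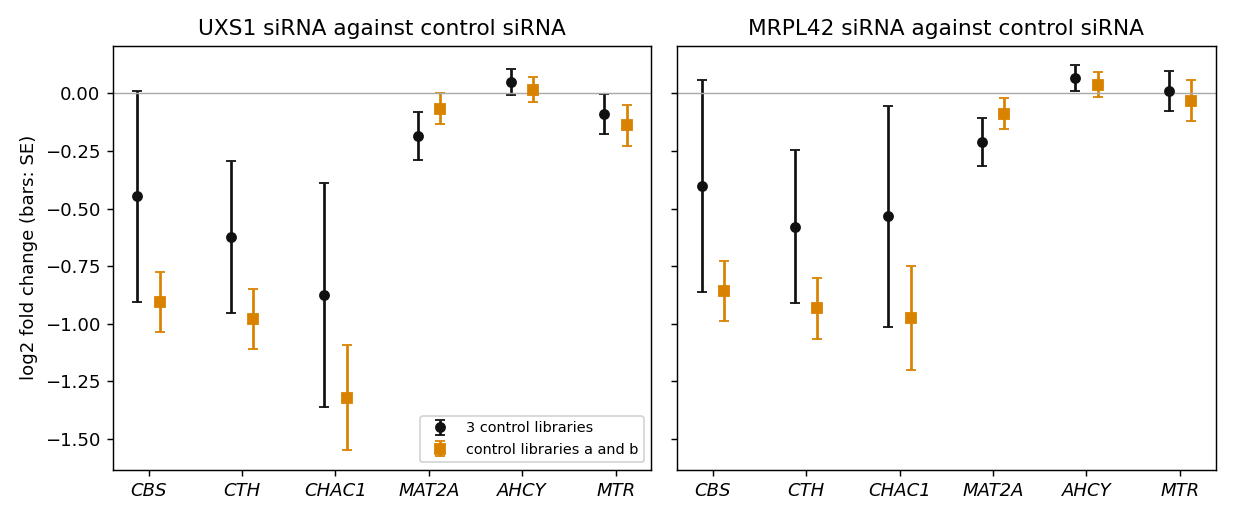
Log2 fold change with SE (bars) in UXS1 siRNA (left) and MRPL42 siRNA (right) against control siRNA, fitted with edgeR with 3 control libraries (circles) or with control libraries a and b (squares). CBS, CTH and CHAC1 have wide bars with 3 control libraries and values between -0.86 and -1.32 without control library c. MAT2A, AHCY and MTR lie within 0.22 of 0 in both fits.

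MAT2A encodes the catalytic subunit of the methionine adenosyltransferase of dividing cells (chromosome 2, 85539165 to 85545280, plus strand). It stood at 404, 397 and 423 CPM in UXS1 siRNA, 373, 430 and 397 CPM in MRPL42 siRNA and 415, 432 and 544 CPM in control siRNA. Control library c was the highest of the 9 libraries and the other control libraries lay within or just above the range of the targeting libraries. Its log2 fold change was -0.18 (SE 0.10) in UXS1 siRNA and -0.21 (SE 0.10) in MRPL42 siRNA, and without control library c it was -0.07 (SE 0.07) in UXS1 siRNA and -0.09 (SE 0.07) in MRPL42 siRNA. The distance of control library c from control libraries a and b was 0.36 in log2 CPM, which 32.7% of genes reached. MAT2A overlaps GGCX on the opposite strand over 558 bases.

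AHCY encodes adenosylhomocysteinase, which splits S-adenosylhomocysteine to homocysteine and adenosine (chromosome 20, 34280268 to 34311802, minus strand). It had 314, 314 and 301 CPM in UXS1 siRNA, 325, 303 and 312 CPM in MRPL42 siRNA and 302, 305 and 290 CPM in control siRNA. All 9 libraries lay within 0.16 of each other on the log2 CPM scale, the narrowest spread of the 6 genes. Its log2 fold change was 0.05 (SE 0.06) in UXS1 siRNA and 0.07 (SE 0.06) in MRPL42 siRNA. Leaving out control library c, it was 0.016 (SE 0.05) in UXS1 siRNA and 0.038 (SE 0.05) in MRPL42 siRNA.

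MTR encodes methionine synthase, which methylates homocysteine with a folate-borne methyl group (chromosome 1, 236795281 to 236903981, plus strand). It stood at 47.6, 42.1 and 45.4 CPM in UXS1 siRNA, 44.5, 53.2 and 46.9 CPM in MRPL42 siRNA and 46.8, 51.3 and 45.4 CPM in control siRNA. The groups overlapped throughout, and the log2 fold changes were -0.09 (SE 0.09) in UXS1 siRNA and 0.01 (SE 0.09) in MRPL42 siRNA. Leaving out control library c, they were -0.14 (SE 0.09) in UXS1 siRNA and -0.032 (SE 0.09) in MRPL42 siRNA.

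The remaining 3 genes were at or near the limit of detection. MAT1A, the liver form of methionine adenosyltransferase (chromosome 10, 80271820 to 80289684, minus strand), had 12 summed counts in UXS1 siRNA, 12 in MRPL42 siRNA and 15 in control siRNA. BHMT, which methylates homocysteine with betaine (chromosome 5, 79111779 to 79132290, plus strand), had 14 summed counts in UXS1 siRNA, 7 in MRPL42 siRNA and 10 in control siRNA. It lies within DMGDH on the opposite strand, and the sources used here do not say whether counting used the strand. GNMT, which uses up S-adenosylmethionine on glycine (chromosome 6, 42960758 to 42963880, plus strand), had 4 summed counts in UXS1 siRNA, 2 in MRPL42 siRNA, 1 in control siRNA and no count in 5 of the 9 libraries. These counts do not allow a difference between groups to be seen.

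Counts of 2 genes within a library compare them without any scaling between libraries. CBS made up 76.8%, 77.4% and 78.2% of CBS and CTH counts in UXS1 siRNA, 77.7%, 76.8% and 77.6% in MRPL42 siRNA and 77.1% and 75.8% in control libraries a and b. The share was 64.5% in control library c (95% exact binomial interval 57.8 to 70.9), below the intervals of the other 8 libraries, of which the lowest bound was 72.0%. Both transsulfuration mRNAs thus kept nearly the same balance in the 8 other libraries. CHAC1 made up 49.6% to 52.4% of CHAC1 and CTH counts in UXS1 siRNA, 48.1% to 60.9% in MRPL42 siRNA and 56.7%, 57.4% and 45.1% in control libraries a, b and c. MAT2A made up 55.9% to 58.4% of MAT2A and AHCY counts in UXS1 siRNA, 53.4% to 58.6% in MRPL42 siRNA, 57.9% and 58.6% in control libraries a and b and 65.2% (interval 64.4 to 65.9) in control library c. These intervals cover counting error only, as amplified reads that carry no molecular identifier can stem from 1 molecule.

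**Figure D4:**
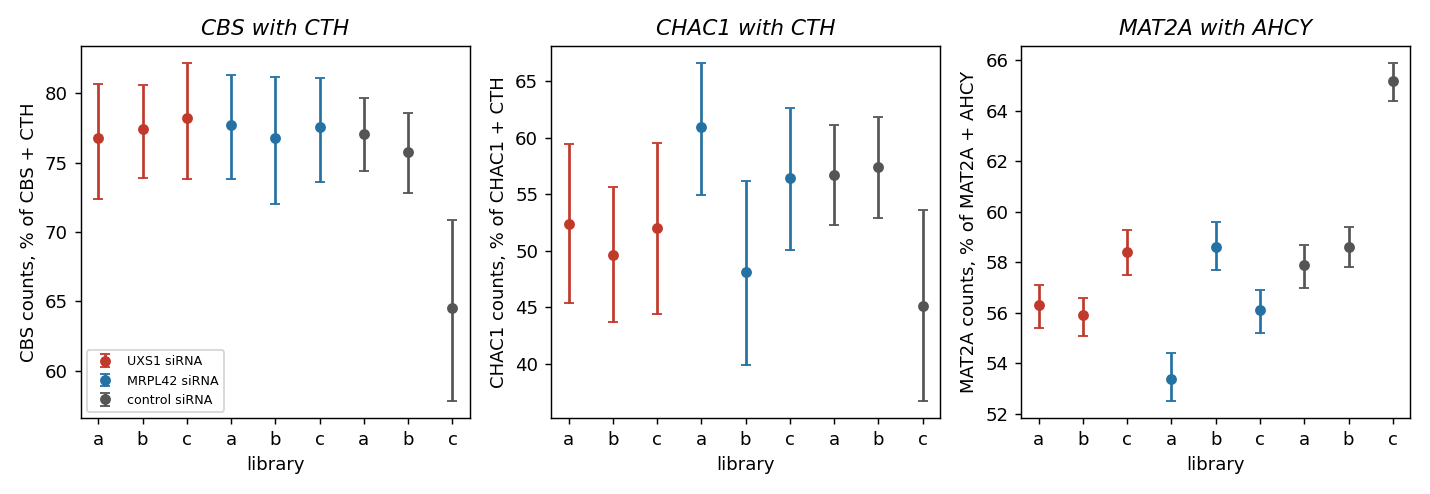
Share of CBS in CBS and CTH counts (left), of CHAC1 in CHAC1 and CTH counts (middle) and of MAT2A in MAT2A and AHCY counts (right) in each library, with 95% exact binomial intervals as bars and axes that do not start at 0. Control library c stands at 64.5% for CBS and at 65.2% for MAT2A, apart from the other 8 libraries in both, whereas its CHAC1 interval overlaps those of other libraries.

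The comparison of UXS1 siRNA against MRPL42 siRNA is not known to have entered the choice of genes, and it was tested. None of the 6 genes passed the threshold (edgeR adjusted p = 0.9998 for each), and none of all 12657 did (0.0%). No member had an unadjusted p below 0.05, against 1.72% of all genes, and DESeq2 and limma-voom called no gene. The log2 fold change was -0.34 for CHAC1 (95% confidence interval -1.46 to 0.77), -0.046 for CTH (-0.81 to 0.72) and -0.044 for CBS (-1.09 to 1.00). The CHAC1 value was -0.026 without MRPL42 siRNA library a and -0.59 without MRPL42 siRNA library b. As folds, the intervals over all libraries run from 0.364 to 1.71 for CHAC1, 0.572 to 1.64 for CTH and 0.47 to 2.0 for CBS. The spread behind these intervals was estimated over all 9 libraries. It thus includes control library c, which is not part of this comparison. The 6 targeting libraries alone spanned 0.53 for CBS, 0.46 for CTH and 1.20 for CHAC1 in log2 CPM. The log2 intervals were narrower for MAT2A (0.029, interval -0.20 to 0.26), MTR (-0.099, interval -0.30 to 0.10) and AHCY (-0.016, interval -0.14 to 0.11). The libraries of both groups overlapped for all 6 genes, while 10.1% of all genes did not overlap between these groups.

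Likeness to a member was measured as the root mean square difference of log2 CPM, centred on its mean over the 9 libraries, among 10553 genes with at least 5 CPM on average. For CTH the nearest genes were PSAT1, an enzyme of serine synthesis (0.09), the mitochondrial folate enzyme gene ALDH1L2 (0.12) and ASNS, asparagine synthetase (0.13). For CBS they were PHGDH, the first enzyme of serine synthesis (0.11), DDIT4, an inhibitor of mTORC1 (0.14), and the AP-1 family repressor gene JDP2 (0.16). For CHAC1 they were PHGDH (0.21), JDP2 (0.25) and CBS (0.26), and CTH came at rank 6 (0.28). PSAT1, the nearest to CTH, had 156, 167 and 175 CPM in UXS1 siRNA, 194, 155 and 164 CPM in MRPL42 siRNA and 317, 329 and 134 CPM in control siRNA, so control library c was again lowest. Likeness here is a description over 9 libraries that include control library c.

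Other genes of the same pathways were taken from 6 lists with 58 genes, of which 53 were tested. None passed the adjusted threshold in edgeR with all 9 libraries in any of the comparisons. At an unadjusted p below 0.05 there were 10 in UXS1 siRNA and 11 in MRPL42 siRNA against control siRNA, and 1 between the siRNAs, where 17.8%, 20.2% and 1.72% of all genes had such a p in the same comparisons. As shares of the 53 genes these counts lie near those of all genes. DESeq2 called 3 in UXS1 siRNA and 4 in MRPL42 siRNA against control siRNA, all lower, and 0 between the siRNAs. Of all genes it called 3.63%, 5.35% and 0.0% in either direction in the same comparisons, and 1.15%, 1.22% and 0.0% lower. The median log2 fold change of the 53 genes was 0.031 in UXS1 siRNA and -0.016 in MRPL42 siRNA. Without control library c it was 0.0069 in UXS1 siRNA and -0.053 in MRPL42 siRNA. Over all genes, with all 9 libraries, it was -0.0047 in UXS1 siRNA and -0.011 in MRPL42 siRNA. Without control library c, edgeR called CEBPG and TRIB3 in UXS1 siRNA and CEBPG in MRPL42 siRNA, and no other gene of the lists.

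The list of stress response genes had a median of -0.18 in UXS1 siRNA and -0.12 in MRPL42 siRNA over 7 genes. Without control library c the median was -0.37 in UXS1 siRNA and -0.35 in MRPL42 siRNA. Whether each of the 7 acts on CHAC1, CTH or CBS was not tested. With all 9 libraries edgeR called none of the 7 in either comparison. Without control library c, 2 of 7 were called lower in UXS1 siRNA and 1 of 7 in MRPL42 siRNA. Of all genes, 1.07% were called lower in UXS1 siRNA and 0.792% in MRPL42 siRNA in that fit. The list was written with earlier results of these data known, so these counts are no test of it. CEBPG, a C/EBP partner of ATF4, had 81.1, 80.3 and 85.5 CPM in UXS1 siRNA, 87.6, 79.5 and 76.1 CPM in MRPL42 siRNA and 111, 111 and 92.1 CPM in control siRNA. All 6 targeting libraries lay below all controls, a separation of groups found in either direction in 26.2% of all genes in UXS1 siRNA and 21.6% in MRPL42 siRNA. CEBPG had a log2 fold change of -0.35 (edgeR adjusted p = 0.171) in UXS1 siRNA and -0.37 (edgeR adjusted p = 0.135) in MRPL42 siRNA. Without control library c it fell by 0.45 in UXS1 siRNA (edgeR adjusted p = 0.00945) and 0.46 in MRPL42 siRNA (edgeR adjusted p = 0.0121). TRIB3, a pseudokinase induced by ATF4, had 328 to 363 CPM in UXS1 siRNA, 316 to 424 CPM in MRPL42 siRNA, 515 and 477 CPM in control libraries a and b and 233 CPM in control library c. With all 9 libraries its log2 fold change was -0.24 in UXS1 siRNA (edgeR adjusted p = 0.631) and -0.14 in MRPL42 siRNA (edgeR adjusted p = 0.769). Only without control library c did TRIB3 pass in UXS1 siRNA, at -0.53 (edgeR adjusted p = 0.0331). In MRPL42 siRNA it then stood at -0.42 (edgeR adjusted p = 0.0829). ATF3, a stress-induced ATF family member, had 20.9 to 24.2 CPM in UXS1 siRNA, 22.2 to 23.8 CPM in MRPL42 siRNA and 27.5 to 30.7 CPM in control siRNA, and in control library c it was not low (30.7 CPM). Its log2 fold changes were -0.38 in UXS1 siRNA (edgeR adjusted p = 0.165) and -0.37 in MRPL42 siRNA (edgeR adjusted p = 0.135). NUPR1, a small stress-induced nuclear protein gene, had 104 to 119 CPM in UXS1 siRNA, 58.8 to 172 CPM in MRPL42 siRNA, 93.2 and 83.2 CPM in control libraries a and b and 20.3 CPM in control library c (0.79 in UXS1 siRNA, edgeR adjusted p = 0.439, and 0.78 in MRPL42 siRNA, edgeR adjusted p = 0.392). Its values without control library c were 0.35 in UXS1 siRNA and 0.35 in MRPL42 siRNA. ATF4 itself and the stress factor gene DDIT3 were chosen after their values were seen. ATF4 had 232 to 259 CPM in UXS1 siRNA, 224 to 296 CPM in MRPL42 siRNA, 332 and 331 CPM in control libraries a and b and 183 CPM in control library c. DDIT3 had 75.3 to 86.0 CPM in UXS1 siRNA, 69.9 to 97.2 CPM in MRPL42 siRNA, 80.7 and 78.8 CPM in control libraries a and b and 58.3 CPM in control library c. With all 9 libraries the ATF4 log2 fold changes were -0.19 in UXS1 siRNA (edgeR adjusted p = 0.657) and -0.12 in MRPL42 siRNA (edgeR adjusted p = 0.754), and without control library c they were -0.43 in UXS1 siRNA (edgeR adjusted p = 0.0667) and -0.36 in MRPL42 siRNA (edgeR adjusted p = 0.103). Those of DDIT3 were 0.16 in UXS1 siRNA (edgeR adjusted p = 0.601) and 0.21 in MRPL42 siRNA (edgeR adjusted p = 0.424), and without control library c they were 0.0069 in UXS1 siRNA (edgeR adjusted p = 0.984) and 0.067 in MRPL42 siRNA (edgeR adjusted p = 0.792).

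Glutathione synthesis genes had a median of -0.13 in UXS1 siRNA and -0.19 in MRPL42 siRNA over 6 genes. SLC7A11, the cystine importer that supplies cysteine from outside the cell, had 438, 367 and 389 CPM in UXS1 siRNA, 403, 352 and 316 CPM in MRPL42 siRNA and 455, 475 and 480 CPM in control siRNA. All targeting libraries lay below all controls, control library c included, as groups separated in either direction in 26.2% of all genes in UXS1 siRNA and 21.6% in MRPL42 siRNA. SLC7A11 had log2 fold changes of -0.24 in UXS1 siRNA (edgeR adjusted p = 0.253) and -0.40 in MRPL42 siRNA (edgeR adjusted p = 0.135). Its partner chain SLC3A2 stood at 462 to 514 CPM in UXS1 siRNA, 480 to 537 CPM in MRPL42 siRNA and 577 to 636 CPM in control siRNA (-0.31 in UXS1 siRNA, edgeR adjusted p = 0.171, and -0.22 in MRPL42 siRNA, edgeR adjusted p = 0.161). GCLC, the catalytic subunit of glutamate-cysteine ligase, stood at 170 to 179 CPM in UXS1 siRNA, 167 to 179 CPM in MRPL42 siRNA and 189 to 206 CPM in control siRNA (-0.18 in UXS1 siRNA, edgeR adjusted p = 0.203, and -0.21 in MRPL42 siRNA, edgeR adjusted p = 0.141). DESeq2 called SLC3A2 lower in UXS1 siRNA, SLC7A11 and GCLC lower in MRPL42 siRNA, and CEBPG and ATF3 lower in both.

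The other methionine cycle and salvage genes had median log2 fold changes of 0.015 in UXS1 siRNA and -0.071 in MRPL42 siRNA over 15 genes. MTRR, which reactivates methionine synthase, had 31.7 to 34.3 CPM in UXS1 siRNA, 28.9 to 34.4 CPM in MRPL42 siRNA and 36.6 to 37.3 CPM in control siRNA (-0.17 in UXS1 siRNA, edgeR adjusted p = 0.285, and -0.23 in MRPL42 siRNA, edgeR adjusted p = 0.164). The salvage enzyme genes ADI1 (0.21 in UXS1 siRNA, edgeR adjusted p = 0.232, and 0.13 in MRPL42 siRNA, edgeR adjusted p = 0.371) and MRI1 (0.14 in UXS1 siRNA, edgeR adjusted p = 0.396, and 0.036 in MRPL42 siRNA, edgeR adjusted p = 0.817) did not pass either. ADI1 without control library c stood at 0.11 in UXS1 siRNA and 0.042 in MRPL42 siRNA. Methyltransferases that use S-adenosylmethionine had median log2 fold changes of 0.26 in UXS1 siRNA and 0.30 in MRPL42 siRNA over 7 genes, and of 0.15 in UXS1 siRNA and 0.11 in MRPL42 siRNA without control library c. HNMT, which methylates histamine, had 11.85 to 11.98 CPM in UXS1 siRNA, 9.03 to 13.2 CPM in MRPL42 siRNA and 8.82, 9.07 and 5.89 CPM in control siRNA (0.58 in UXS1 siRNA, edgeR adjusted p = 0.187, and 0.46 in MRPL42 siRNA, edgeR adjusted p = 0.222). HNMT without control library c stood at 0.40 in UXS1 siRNA and 0.27 in MRPL42 siRNA. PEMT, which makes phosphatidylcholine (0.43 in UXS1 siRNA, edgeR adjusted p = 0.218, and 0.41 in MRPL42 siRNA, edgeR adjusted p = 0.200), was also lowest in control library c, at 14.6 CPM.

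Genes of cysteine and sulfide breakdown had median log2 fold changes of 0.058 in UXS1 siRNA and 0.063 in MRPL42 siRNA over 8 genes, and of 0.069 in UXS1 siRNA and 0.013 in MRPL42 siRNA without control library c. The sulfurtransferase genes TST (0.46 in UXS1 siRNA, edgeR adjusted p = 0.268, and 0.52 in MRPL42 siRNA, edgeR adjusted p = 0.200) and MPST (0.40 in UXS1 siRNA, edgeR adjusted p = 0.375, and 0.49 in MRPL42 siRNA, edgeR adjusted p = 0.249) had their lowest levels in control library c, 22.7 and 25.5 CPM. In the fit without control library c, TST stood at 0.27 in UXS1 siRNA and 0.33 in MRPL42 siRNA, and MPST at 0.19 in UXS1 siRNA and 0.29 in MRPL42 siRNA. The thiol dioxygenase gene ADO had its highest level there, 47.7 CPM (-0.18 in UXS1 siRNA, edgeR adjusted p = 0.460, and -0.31 in MRPL42 siRNA, edgeR adjusted p = 0.207), and without control library c it stood at -0.023 in UXS1 siRNA and -0.15 in MRPL42 siRNA. Other genes of glutathione breakdown had median log2 fold changes of 0.07 in UXS1 siRNA and 0.06 in MRPL42 siRNA over 10 genes, and without control library c the direction turned, to -0.034 in UXS1 siRNA and -0.0060 in MRPL42 siRNA. GGCT, which acts on the gamma-glutamyl amino acids that follow glutathione cleavage, had 74.4 to 79.0 CPM in UXS1 siRNA, 69.2 to 75.7 CPM in MRPL42 siRNA and 66.5 to 69.3 CPM in control siRNA (0.19 in UXS1 siRNA, edgeR adjusted p = 0.191, and 0.09 in MRPL42 siRNA, edgeR adjusted p = 0.383). GGT7, of the gamma-glutamyltransferase family, stood at 0.23 in UXS1 siRNA (edgeR adjusted p = 0.412) and 0.036 in MRPL42 siRNA (edgeR adjusted p = 0.897), and the aminopeptidase gene ANPEP at -0.12 in UXS1 siRNA (edgeR adjusted p = 0.504) and -0.096 in MRPL42 siRNA (edgeR adjusted p = 0.541). In the fit without control library c, GGT7 stood at 0.25 in UXS1 siRNA and 0.063 in MRPL42 siRNA, and ANPEP at -0.22 in UXS1 siRNA and -0.19 in MRPL42 siRNA.

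**Figure D5:**
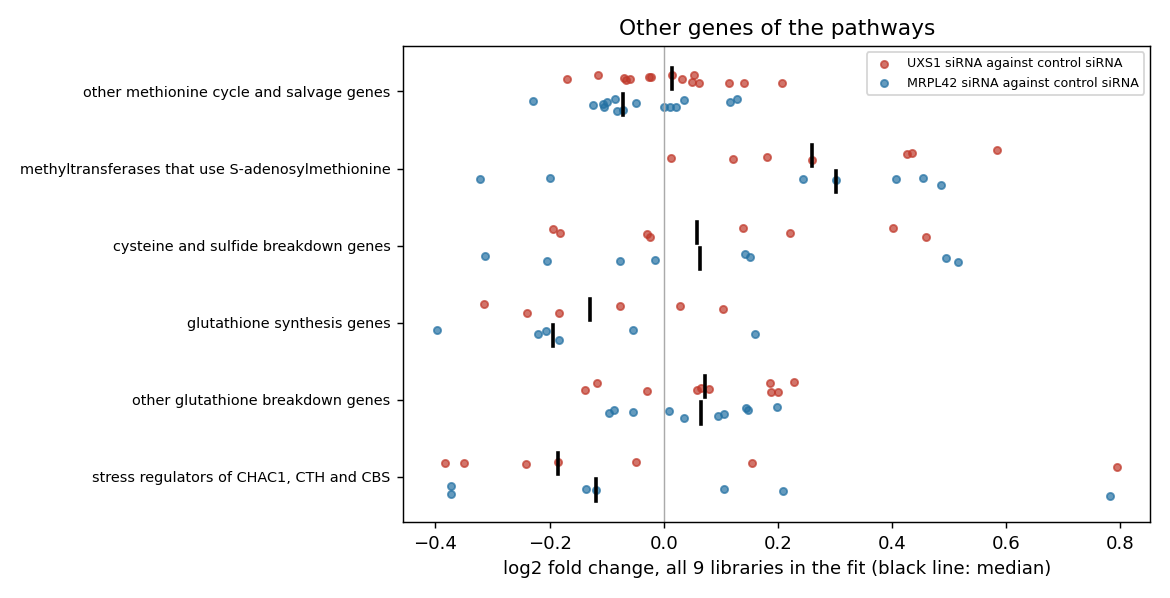
Log2 fold change of each tested gene (points) of 6 lists in UXS1 siRNA (red, upper row of each list) and MRPL42 siRNA (blue, lower row) against control siRNA, with all 9 libraries in the fit and the list median as a black line. None of the points passed the adjusted threshold. Medians run from -0.19 for glutathione synthesis genes to 0.30 for methyltransferases, both in MRPL42 siRNA.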

How the data were processed

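The authors deposited 1 table with estimated counts per gene and library, per the file headers. Its 9 TPM columns were not used, so that each library entered with 1 measure. The submitters' processing notes name fastp, Bowtie2, HISAT2, edgeR and hg38 without versions or roles. The counting program is not stated there. Between 83.6% and 84.9% of values above 0 per library were whole, and the estimated counts were rounded to whole numbers. Columns were assigned to groups by name (in the UXS1 columns 2 letters of it are exchanged), and their letters correspond to no repeat number in the labels.

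All 9 libraries entered 1 edgeR 4.0.16 fit with a mean for each group, after filterByExpr and TMM scaling (limma 3.58.1, DESeq2 1.42.0, R 4.3.3). The quasi-likelihood test was two-sided, with Benjamini-Hochberg adjustment over all tested genes and a threshold of 0.05. Each edgeR SE was derived as the absolute log2 fold change divided by the square root of the quasi-likelihood F statistic. The confidence intervals between the siRNAs were built from that SE. CPM used TMM-adjusted library totals, and log2 CPM a prior count of 0.5. Levels between genes were compared as CPM per kilobase. Member shares have Clopper-Pearson intervals. Coordinates are from GENCODE 29 on GRCh38, and promoters from RefSeq.

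Members and gene lists were chosen with earlier results of these data known. All 9 members are named. From each list the 3 genes with the smallest p in either comparison with control are named, and up to 4 called with all libraries or without control library c. The 3 genes nearest to CHAC1, CTH and CBS are named too. A gene that this rule names in the methyltransferase list is not reported here. KYAT1 has 2 identifiers in the table, and the one found in GENCODE 29 was used in its list. Alternatives were DESeq2, limma-voom, DESeq2 size factors, no filter, the 6 libraries compared, each library left out, the column letter as a block, offsets for transcript length (lowess span 0.3, lengths for 12551 of 12657 genes) and, for levels, a pseudocount of 0.1 in place of 1.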

Additional observations from a re-analysis of the deposited data

How the results depend on the processing

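The number of genes called in UXS1 siRNA against control siRNA was 2 with all 9 libraries, 460 in DESeq2 (314 higher, 146 lower), 253 in the 6 libraries compared, 9 with transcript length offsets and 318 with these offsets without control library c. Leaving out 1 library gave 0 to 355, with 201 without control library c and 355 without MRPL42 siRNA library b. In MRPL42 siRNA against control siRNA it was 0 with all libraries, 677 in DESeq2 (522 higher, 155 lower), 2 with length offsets and 287 with these offsets without control library c. Leaving out 1 library gave 0 to 810, with 169 without control library c and 810 without MRPL42 siRNA library b. Other pathway genes called were 0 with all libraries. In UXS1 siRNA they were 3 in DESeq2, 6 with length offsets without control library c and 0 to 2 with 1 library left out. In MRPL42 siRNA they were 4, 4 and 0 to 1. Between the siRNAs no setting called a gene. The cause of these shifts was not tested. The column letter as a replicate block gave 0 calls in each comparison. Deviations of libraries with the same letter correlated between -0.24 and 0.118 across genes, which are not independent replicates, so the letters were not taken to pair libraries. No paired analysis by repeat number was possible because the columns carry none.

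With 1 library left out, the UXS1 siRNA against MRPL42 siRNA log2 fold change, never past the threshold, ran from -0.15 to 0.073 for CTH, -0.16 to 0.093 for CBS, -0.026 to 0.083 for MAT2A, -0.039 to 0.0047 for AHCY, -0.59 to -0.026 for CHAC1 and -0.16 to -0.023 for MTR. The deposited length-scaled values were not run as a scale. With a pseudocount of 0.1 in place of 1, the log2 difference was 0.26 for BHMT in UXS1 siRNA and 0.47 and 0.15 for GNMT in UXS1 siRNA and MRPL42 siRNA, where the pseudocount of 1 gave 0.071, 0.069 and 0.024. Those genes had 0 to 7 counts per library, so depth limits them. Of the other values tried for single genes, 297 counted as unchanged and 3 AHCY values as moved, all under length offsets. A further 6 values, all between the siRNAs, reversed direction. Between the siRNAs, unchanged meant the same direction and call. Against control siRNA it meant a shift below 1 SD within groups, whatever the call. For CBS, CTH and CHAC1 control library c widened that SD. Their shifts without that library thus counted as unchanged, although in UXS1 siRNA each became called (CBS from -0.45 to -0.90).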
